A study of Mus musculus with 2 samples.

Results

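The COUP-TF genes Nr2f1, Nr2f2 and Nr2f6 were examined together with 7 further nuclear receptor genes, Nr2e1, Nr4a2, Nr4a3, Rora, Rarb, Esrrg and Nr3c2, for the position and strength of POU3F1 peaks assigned to them. The 10 genes are a named list, and a gene counted as having a peak where it has a row in the authors' deposited gene table, which pairs peaks with genes. Of the 10, 7 were among the 2323 genes of that table, with 20 pairs of 4426. These pairs corresponded to 20 different peaks of 2652. The samples were retina of wild-type (WT) CD1 mouse embryos at day 14 (E14), profiled by CUT&RUN, in which an antibody directs a nuclease to the chromatin around its target. One library was made with an antibody against POU3F1, a POU-domain transcription factor, and 1 with rabbit IgG as the control. Both libraries share strain, genotype, tissue and age. The study asks which genes Pou3f1 acts on in retinal neurons that project to the opposite side of the brain. The number of embryos is not given in the sources used here.

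Nuclear receptors are transcription factors that bind DNA through a zinc-finger domain and carry a domain shaped to hold a small ligand. Those with no established natural ligand are called orphans, as the COUP-TFs are. In the mouse eye, Nr2f1 and Nr2f2 act in the division of the optic cup into neural retina, pigment epithelium and optic stalk, and Nr2e1, also called Tlx, maintains progenitors of the retina and brain. Rarb and Nr3c2 are not orphans, since their ligands are retinoic acid and mineralocorticoid hormones.

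The peak list rests on a single POU3F1 library, so no value below could be checked in a replicate, and no test was made. The rabbit IgG library has no rows of its own in the peak list and was not analysed here. CUT&RUN measures occupancy and not RNA, so the labelled tissue could not be checked against the expression of its markers. Fold is the enrichment over local background at the summit of a peak, as the authors deposited it, and is used only to describe and rank peaks within the list. Summit pileup is the number of fragments at the summit, recovered from the deposited fold and p-value. Distances are the authors' signed distances between peak and gene start (the transcription start site, TSS), negative upstream. Coordinates are mm10, counted from 1.

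Having a peak was more frequent among these genes than among all protein-coding genes, and 1 gene, Nr2f1, held 10 of the 20 peaks. Of the 10 genes, 7 (70.0%) had an assigned peak, against 10.2% of 21900 protein-coding genes. Nr2f1 had 10 peaks, Esrrg 3, Nr4a2 and Rarb 2 each, and Nr2f2, Nr4a3 and Rora 1 each. Nr2f6, Nr2e1 and Nr3c2 had no assigned peak. Within 50 kb of the TSS, 5 of the 10 genes kept a peak (Nr2f1, Nr2f2, Rora, Rarb and Esrrg), against 3.66% of protein-coding genes. Within 5 kb it was Nr2f1, Rarb and Esrrg, against 1.4%.

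Long or isolated loci collect more peaks, because each gene is assigned the stretch that reaches to the domains of its neighbours, up to 1000000 bp in either direction. When these assignment domains were rebuilt, 7 of the 10 genes had one of at least 1 Mb. In that class 6 of 7 had a peak, against 51.9% of 1141 protein-coding genes with a rebuilt domain. In the class under 1 Mb, which held Nr2f6, Nr2e1 and Nr4a3, 1 of 3 had a peak, against 9.74% of 16799. The median domain was 1.11 Mb for the 10 genes and 0.111 Mb for the protein-coding genes with a rebuilt domain, 17940 of 21900. A gene without a placed peak entered these classes only if it had a RefSeq start, which can raise the class shares. The list was drawn up with earlier results of these data known, so its share of genes with a peak is a description and not a test.

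**Figure D1:**
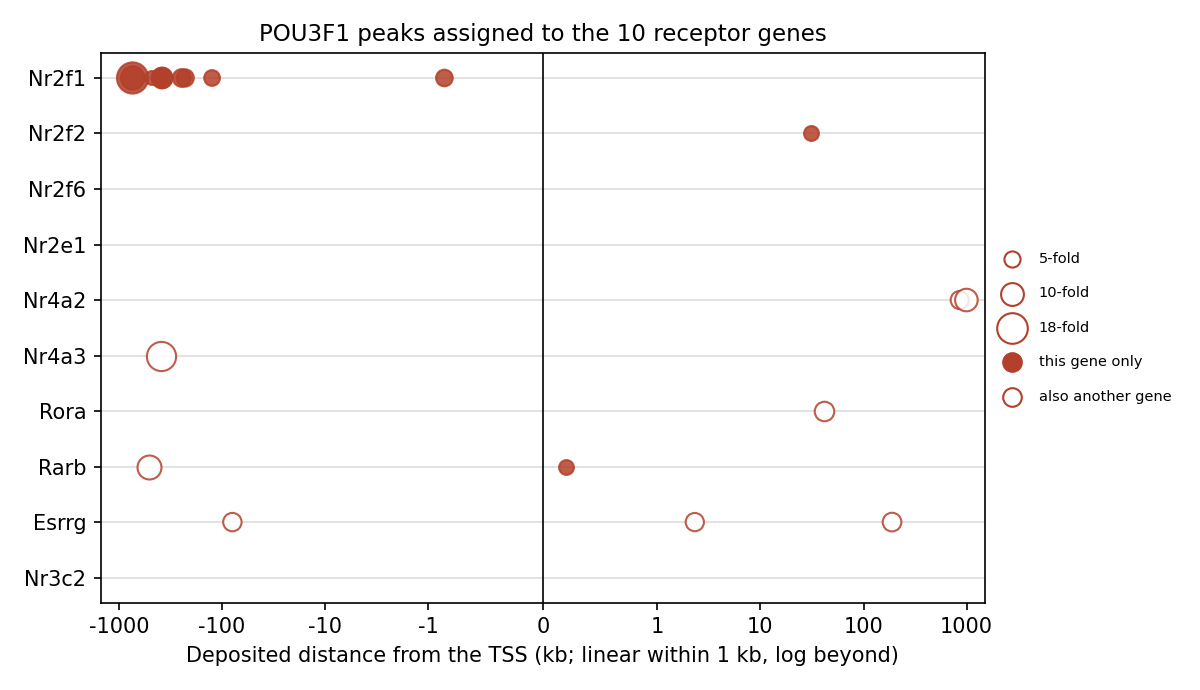
Position of each assigned POU3F1 peak relative to the TSS of its gene, in kb on an axis that is linear within 1 kb and logarithmic beyond. Circle area is proportional to fold, filled circles are peaks assigned to that gene alone and open circles peaks also assigned to another gene. All 10 Nr2f1 peaks lie upstream and belong to Nr2f1 alone, and Nr2f6, Nr2e1 and Nr3c2 have none.

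The strength of the 20 peaks was ordinary for the peak list. Their median fold was 6.44 with a range of 3.69 to 18.7, and the median over all other peaks was 6.37. Of the 20 peaks, 4 reached 10-fold (20%, 95% exact binomial interval 5.73 to 43.7%), against 18.7% of all 2652 peaks. The 4 were a pair far upstream of Nr2f1, the peak of Nr4a3 and the upstream peak of Rarb. Each of the 20 had a q-value under 0.001, as did 2439 of all 2652 peaks. The median summit pileup was 21.5 fragments, with a range of 12 to 65, against 19 over the other peaks. In 8 of the 20 (40.0%) the pileup was under 20 fragments, against 51.6% of the other peaks with a recovered pileup. Several of the single peaks, like many in the list, thus rest on few fragments. In whole retina, weak occupancy in many cells and strong occupancy in few cannot be told apart.

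The promoter of Rarb was the only place among the 20 peaks where a peak touched an annotated promoter window, against 6.79% of all peaks. Its sequence is shown because the peak begins there and because it carries the element through which retinoic acid is known to act on this gene. A promoter window here has 300 bases, from 250 bases before to 50 bases after a RefSeq start. The part of the Rarb window printed below ends 30 bases after the start. It lies on the minus strand, at chr14:16575447-16575726 (GRCm38.p6, the assembly of mm10). The first run of capitals is a pair of half-sites matching GTTCANNNNNNGTTCA, and the last run is the 16 printed bases that lie inside the peak.
Rarb promoter: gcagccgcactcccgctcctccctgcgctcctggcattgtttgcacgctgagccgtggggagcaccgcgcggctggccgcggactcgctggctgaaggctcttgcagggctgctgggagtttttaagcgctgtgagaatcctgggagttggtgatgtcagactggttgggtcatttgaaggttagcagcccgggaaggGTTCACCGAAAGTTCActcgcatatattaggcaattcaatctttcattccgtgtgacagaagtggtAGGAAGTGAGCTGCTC

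The paired half-sites ran from base -52 to base -37, counted from the RefSeq start. The peak ran from base +15 to base +254, with its summit at +42, so 50 bases lay between the pair and the peak. GTTCANNNNNNGTTCA, sought on both strands as TGAACNNNNNNTGAAC on the other, was present in 25 of 32851 promoter windows (0.0761%). It was chosen for Rarb after the first look at the data. The octamer ATGCAAAT, the classical binding sequence of POU factors, was found in 1.74% of windows on either strand, and the half-site AGGTCA in 16.3%. Neither was found in any of the 14 windows of the 10 genes. A match is a description of these letters, and its absence says nothing about binding. Apart from the Rarb promoter, the sequences under the peaks were not analysed here.

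Nr2f1, which encodes COUP-TFI, carried 10 of the 20 POU3F1 peaks of the group. It lies on the minus strand of chromosome 13 (78188971 to 78198873), and its peaks were all upstream, the farthest 738109 bp from the TSS. By number of peaks it ranked 23 among the 2323 genes, a count it shared with 2 others. At least 10 peaks were assigned to 0.11% of protein-coding genes and to 1.58% of those with a domain of at least 1 Mb.

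The strongest Nr2f1 peaks formed a pair at the far end of the locus. The first, at 78937284 to 78938449 on chromosome 13, was 18.7-fold with a summit pileup of 37 fragments over a local background of 1.04. It lay 738109 bp upstream of the TSS and ranked 137 by fold in the whole list. The second, at 78936317 to 78936946, was 10.6-fold with a pileup of 26 and ended 337 bp before the first began. No annotated gene overlapped either of them.

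A further pair of Nr2f1 peaks lay about midway to the TSS. The peak at 78581049 to 78581824 was 8.26-fold with a pileup of 20, 381679 bp upstream. Its partner at 78582452 to 78582962, named after its values were seen, was 7.86-fold with a pileup of 15, and 627 bp separated the 2. Both fell inside Gm32067, a long non-coding RNA gene.

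The peak nearest to the Nr2f1 TSS was weak. It was 859 bp upstream by the deposited distance, at 78200481 to 78200752, with 5.32-fold enrichment and a pileup of 22. The TSS implied by the deposited distances lay 884 bp upstream of the RefSeq start of Nr2f1, so the same peak was 1743 bp from that start. It fell within A830082K12Rik, a long non-coding RNA gene whose annotated span includes the RefSeq start of Nr2f1.

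Fold and fragment number gave different orders along the Nr2f1 locus. The peak 125035 bp upstream, named after its values were seen, had the highest pileup of the 20 peaks, 65 fragments, but also the highest background, 12.8, and was 4.77-fold. The weakest by fold, 3.69 at 478689 bp upstream, had 33 fragments over a background of 8.22. The remaining 3 peaks lay 228084, 246253 and 402659 bp upstream, with folds of 5.74, 6.05 and 5.12.

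**Figure D2:**
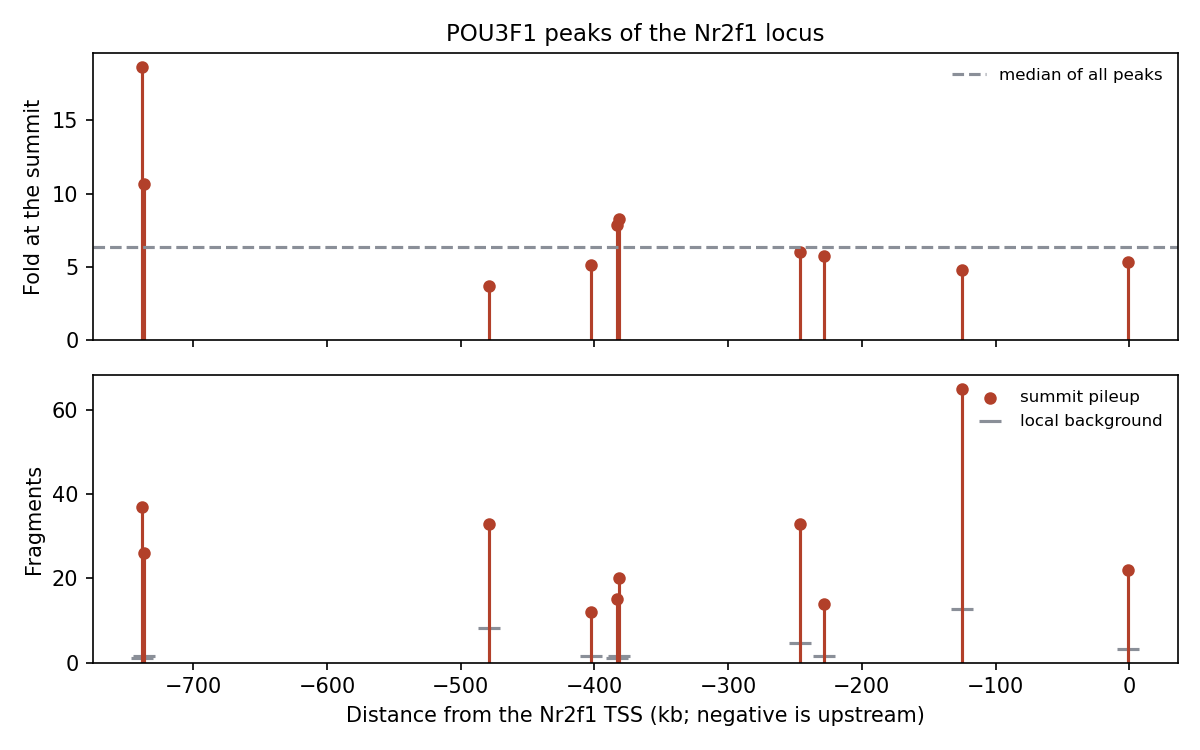
The 10 POU3F1 peaks of the Nr2f1 locus by distance from the TSS in kb. The upper panel gives fold at the summit with the median of all peaks (6.37) as a dashed line, and the lower panel gives the summit pileup (points) and local background (grey bars) in fragments. The pair near -738 kb is the highest by fold and the peak at -125 kb the highest by pileup.

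None of the Nr2f1 peaks was also assigned to another gene, while 70.8% of the 2505 placed peaks in the list were assigned to more than 1. Sharing is set by the assignment rule and the spacing of genes, so it describes the locus and not the peaks. The rebuilt domain of Nr2f1 reached the full 1000 kb upstream, and the single peak of Nr2f2 was unshared as well. Over the rebuilt domain of 1.17 Mb, Nr2f1 had 8.52 peaks per Mb (95% exact Poisson interval 4.09 to 15.7). The value was 0.955 per Mb over the rebuilt domains of protein-coding genes. The interval takes the peaks as independent, while some lay only 337 and 627 bp apart. The domain extended 174 kb downstream as well, and no peak was assigned on that side.

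The paralogue Nr2f2, which encodes COUP-TFII, had a domain of 1.21 Mb, close to that of Nr2f1, and a single peak. It lay 30848 bp downstream of the deposited TSS, at 70329593 to 70329897 on chromosome 7, inside the long non-coding RNA gene Gm29683. It was 4.25-fold with a pileup of 12 fragments, and its q-value was the weakest of the 20 (−log10 q of 3.03). The density was 0.827 peaks per Mb (0.0209 to 4.61), an interval that holds the genome-wide value. The upper bound of the Nr2f2 interval lay above the lower bound of the Nr2f1 interval. Such an overlap does not show that the densities are alike, and their difference was not tested. The TSS implied by this single distance was 6154 bp from the RefSeq start of Nr2f2.

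Nr2f6, which encodes the COUP-TF relative EAR2, had no peak in a domain of 0.0196 Mb. The nearest peak in the list was 300458 bp away, 9.33-fold, and assigned to Map1s and Myo9b. Nr2e1 had no peak in a domain of 0.171 Mb. The nearest was 661890 bp upstream, 6.44-fold, and assigned to Bend3 and Pdss2. For these compact loci a count of 0 sets only loose upper bounds, 189 and 21.6 peaks per Mb.

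**Figure D3:**
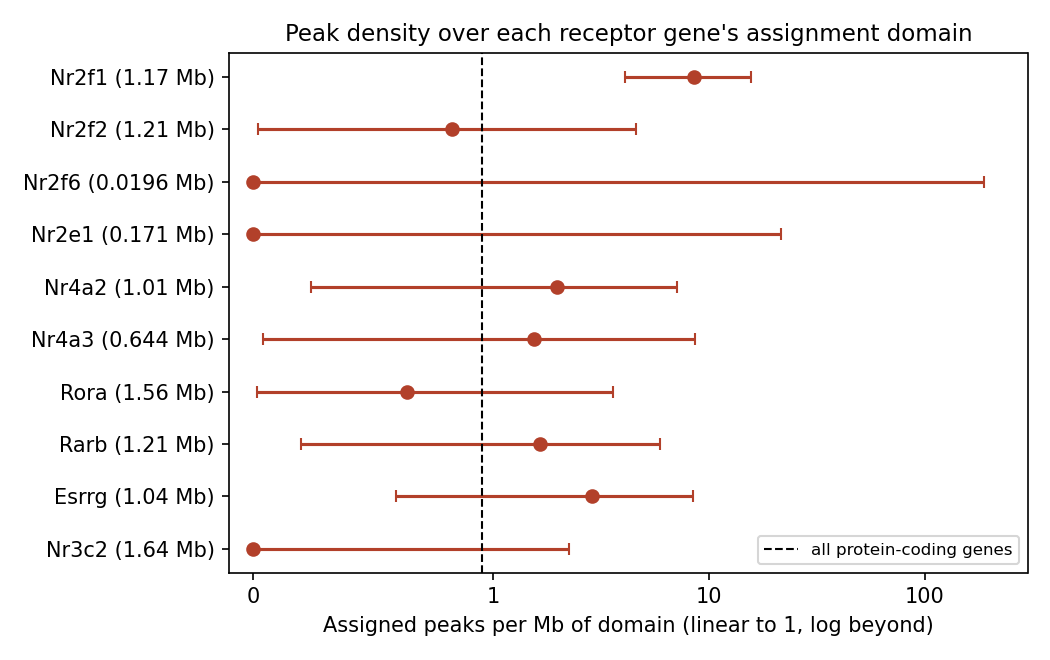
Assigned POU3F1 peaks per Mb of the rebuilt assignment domain for each of the 10 genes, with 95% exact Poisson intervals that cover counting error only. The axis is linear to 1 and logarithmic beyond, and domain lengths stand beside the names. The dashed line is the value for protein-coding genes with a rebuilt domain, 0.955. Only the interval of Nr2f1 among the 10 lies wholly above the line.

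Nr4a2 and Nr4a3, which encode the orphan receptors NURR1 and NOR1, had distant peaks. Both Nr4a2 peaks were near the limit of assignment. They lay 857399 and 995352 bp downstream, at 56257445 to 56257834 and 56119492 to 56119880 on chromosome 2, with folds of 6.29 and 9.79 and pileups of 57 and 44. The TSS implied by the deposited distances was 8965 bp from the RefSeq start, and from that start the second peak was 1004318 bp away, beyond the limit. Both were also assigned to Kcnj3, a potassium channel gene, whose TSS was nearer, at 821669 and 683716 bp.

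The peak of Nr4a3 was the second strongest of the 20. It was 16.4-fold with a pileup of 49 over a background of 2.06, at 47653011 to 47653314 on chromosome 4, 391991 bp upstream. It was also assigned to Sec61b, a gene of the protein translocation channel, whose TSS was 178504 bp away. When each peak was counted only for the gene with the nearest TSS, neither Nr4a2 nor Nr4a3 kept a peak.

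The retinoid-related members Rora and Rarb had peaks inside or close to their gene bodies. Rora encodes an orphan receptor of the ROR group. Its single peak lay 41621 bp downstream of the TSS, at 68695185 to 68695629 on chromosome 9, within a gene body of 735 kb. It was 7.30-fold with a pileup of 21. It was also assigned to Ice2, 702499 bp away. Over 1.56 Mb of domain this gave 0.643 peaks per Mb (0.0163 to 3.58).

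Rarb encodes retinoic acid receptor beta and is itself a known target of retinoic acid. The promoter peak shown above, at 16575223 to 16575462 on chromosome 14, was weak, 4.20-fold with a pileup of 14 fragments. The second peak, at 17089819 to 17090188, was 11.02-fold with a pileup of 27. Its deposited distance was 514460 bp upstream, but the annotated Rarb gene runs to 17082331, and from that 5′ end the peak was 7672 bp upstream. It was also assigned to Thrb, a thyroid hormone receptor gene, 891526 bp from the TSS of Thrb.

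The peaks of Esrrg, which encodes the orphan estrogen-related receptor gamma, were alike in strength. The 3 peaks, on chromosome 1, had folds of 6.50, 6.39 and 6.69 and pileups of 14, 12 and 16, all close to the median fold of the list. They lay 79442 bp upstream (187918281 to 187918490), 2308 bp downstream (187999874 to 188000397) and 189025 bp downstream (188186718 to 188186987). RefSeq gives Esrrg 4 promoter windows, and the deposited distances refer to the most downstream start. All 3 peaks fell inside the gene body of 606 kb. The first was also assigned to Gpatch2, 702874 bp from the TSS of that gene.

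Nr3c2, the mineralocorticoid receptor gene, had the longest domain of the 10 and no peak. Over 1.64 Mb, a count of 0 allows up to 2.25 peaks per Mb, so a density like that of all genes cannot be told from none. The nearest peak was 1226740 bp downstream of the TSS, 10.01-fold, and assigned to Ednra and Ttc29.

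By location, 5 of the 20 peaks overlapped a protein-coding gene, against 47.8% of all peaks, and each of the 5 lay in its own receptor gene, Rora, Rarb or Esrrg. Long non-coding RNA genes were overlapped by 6 of 20, against 13.0%. Of these 6, 5 belonged to Nr2f1 and 1 to Nr2f2. Any annotated gene was overlapped by 11 of 20, against 58.7%. By distance, 10 of the 20 pairs fell 50 to 500 kb from the TSS, against 60.7% of all pairs. A further 5 of 20 lay beyond 500 kb, against 15.6%.

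Across the nuclear receptor superfamily, 15 of 49 genes had an assigned peak (30.6%), against 10.2% of all protein-coding genes. They were the 7 above and 8 of the other 39 (20.5%, 95% exact binomial interval 9.30 to 36.5%, which holds 10.2%). The median rebuilt domain was 0.187 Mb for these 39 and 0.111 Mb for protein-coding genes. Among the 39, Nr5a2, an orphan receptor of early development and liver, had 7 peaks, none within 50 kb of its TSS, and the strongest was 13.4-fold. Rorb, a ROR receptor gene of rod and interneuron development, had 6 peaks, and Thrb had 4. Nr1d2, a circadian repressor, had 2, the nearer 248663 bp from its TSS. Esrra and Thra had 1 peak each at their starts, 172 bp upstream (13.0-fold, pileup 72) and 229 bp downstream (11.8-fold, pileup 47). Nr1h5 and Nr1i2 had 1 each, 16158 and 13519 bp upstream. The density was 2.07 pairs per Mb over the domains of the 10 genes and 2.17 over those of the other 39.

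**Figure D4:**
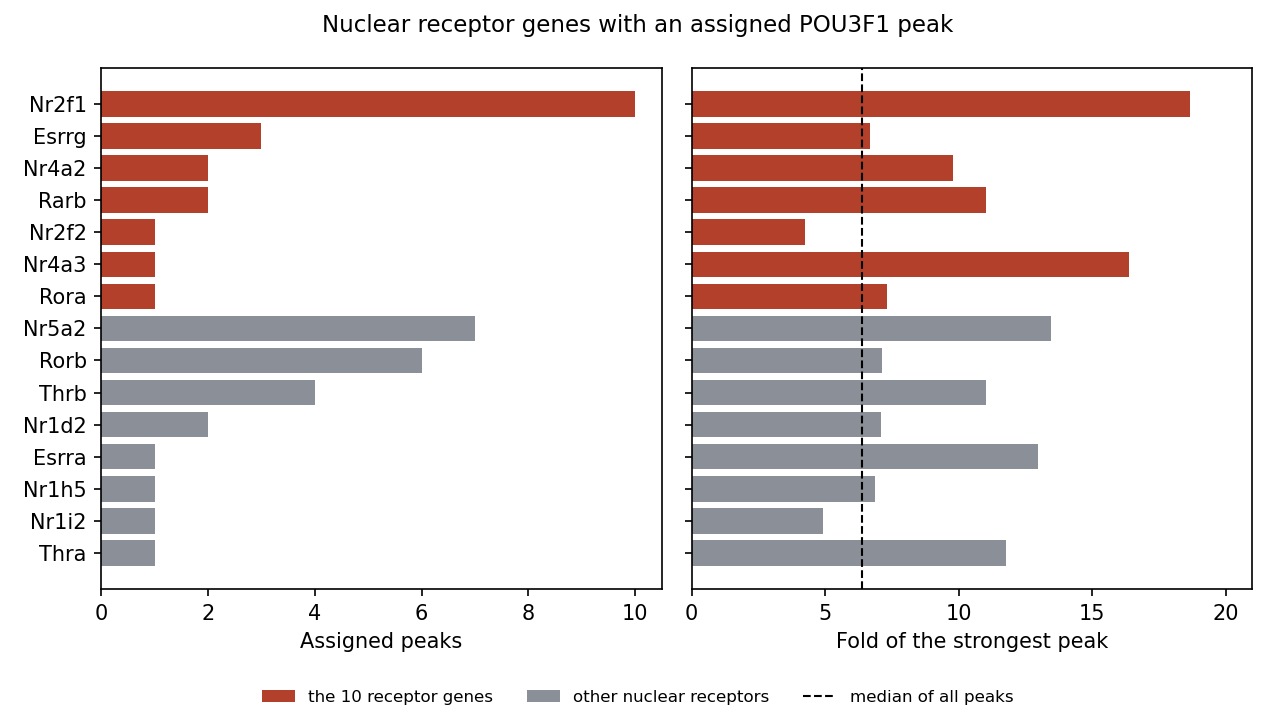
The 15 nuclear receptor genes with an assigned POU3F1 peak, by number of assigned peaks (left) and fold of the strongest peak (right). Red bars are the 7 of the 10 genes examined here, grey bars the 8 others, and the dashed line is the median fold of all peaks, 6.37. Nr2f1 is highest on both measures among the 15.

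In 2 lists of genes that act with these receptors, the share with a peak was below the 70.0% of the 10 genes. Their median domains were also shorter, 0.349 Mb for receptor coregulators and 0.237 Mb for retinoic acid metabolism, against 1.11 Mb. The differences in share were not tested. Of 22 receptor coregulator genes, 4 had a peak (18.2%, exact binomial interval 5.19 to 40.3%, which holds the 10.2% of protein-coding genes). They were Tbl1xr1 with 4 peaks (strongest 10.6-fold), Nrip1 with 2 (7.37-fold), and Ncoa1 (7.24-fold) and Bcl11b (6.39-fold) with 1 each. Of 18 genes of retinoic acid metabolism, 2 had a peak (11.1%, exact binomial interval 1.38 to 34.7%), close to the share of all protein-coding genes. Aldh1a1, which makes retinoic acid in the dorsal retina, had 4 peaks, the strongest 9.33-fold and 92038 bp upstream. Cyp26c1, which degrades retinoic acid, had 1 of 9.22-fold, 114353 bp upstream.

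Of 14 genes of the early eye programme, in which COUP-TFs are known to act, 7 had a peak (50.0%, 95% exact binomial interval 23.0 to 77.0%), against 10.2% of protein-coding genes. The median rebuilt domain in this list was also longer, 0.494 Mb against 0.111 Mb for protein-coding genes, and the difference in share was not tested. Pax6, the eye-field factor gene, had 7 peaks, including 1 at 665 bp upstream of its TSS (11.4-fold, pileup 81). Mitf, the pigment cell factor gene, had 4 (strongest 19.0-fold). Pax2, Otx2, Bmp4, Efnb1 and Efnb2 had 1 each, with folds of 4.74, 5.40, 6.50, 9.33 and 4.50. Within 50 kb of the TSS, only Pax6 and Efnb2 of the 14 kept a peak (14.3%), against 3.66% of protein-coding genes.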

How the data were processed

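Reads were processed on mm10 with tools that include deepTools, MACS2 and Bowtie2, per the submitters' processing notes. The authors' deposited peak list gives each of 2652 intervals a fold (a ratio), the −log10 of a p-value and of a q-value, and a score, which is the −log10 q-value multiplied by 10 and cut to a whole number. The deposited gene table holds distances and, per the file headers, was made with GREAT 4.0.4 on mm10, with basal domains reaching 5000 bp upstream and 1000 bp downstream that extend up to 1000000 bp.

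From these files, each distance was placed on the peak whose midpoint lay at that distance from a TSS within 20000 bp of the RefSeq gene (tolerance 1 bp). This placed 4310 of 4426 pairs (97.4%), all 20 of the receptor genes among them. Ties were settled by the RefSeq start, as for Rora and Rarb. Summit pileup was recovered as the whole number that gives the deposited p-value within 0.001, for 98.3% of peaks. Library depth is unknown. Domains were rebuilt from 1 TSS per gene (the placed one, otherwise a RefSeq start) for 17940 of 21900 protein-coding genes and held 96.5% of the 4250 placed pairs of these genes. Placement and recovery were tested on simulated data. Intervals are exact at the 95% level and cover counting error only.

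The members and gene lists were chosen with earlier results of these data known, and no test was made. Named genes were the 10 members, genes sharing their peaks, and every list gene with a peak. Named peaks were all of a gene with up to 5, otherwise the 3 strongest and the nearest. Alternatives were stricter q-values, distance limits, nearest-TSS assignment and a pileup minimum. Python 3.11.15, numpy 2.4.6, scipy 1.17.1, pandas 2.3.3 and matplotlib 3.10.9 were used.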

Additional observations from a re-analysis of the deposited data

How the results depend on the processing

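The count of 7 receptor genes with a peak stayed within 1.5 times under every alternative run, with 5 as its lowest value. It was 5 with only the nearest TSS, 5 with a pileup of at least 20 fragments and 5 within 50 kb, while the share of all protein-coding genes with a peak was 6.75%, 5.81% and 3.66% under these settings, against 10.2% as deposited. The 20 peaks became 5 when only those within 50 kb of the TSS were kept, and 12 with a summit pileup of at least 20 fragments. The 50 kb limit left 2 early eye genes, 1 coregulator gene and 0 retinoic acid genes with a peak. The pileup minimum left 3 early eye genes, 2 coregulator genes and 1 retinoic acid gene, and the nearest-TSS rule 1 retinoic acid gene. Each of the 20 peaks had a q-value under 0.001, so the stricter q-values could not change any count for the receptor genes. Without peaks under 20 fragments, Nr2f2 and Esrrg kept none. The Nr2f1 count was 1 within 50 kb and its strongest fold was then 5.32. Within 500 kb, Nr2f1 kept 8 peaks (strongest 8.26-fold), Rarb 1 (4.20-fold) and Nr4a2 none. Which of these changes come from fragment depth was not tested. No paired analysis was possible because each antibody had 1 library, and no replicate could be left out.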
